A study of Oryza sativa with 6 samples.

Results

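This account describes a block of 42 loci on rice chromosome 9 in leaves of the autophagy mutant osatg5-1 and of wild-type rice. The block holds every locus with an ID from LOC_Os09g18000 to LOC_Os09g20000 that had at least 10 counts in 3 or more libraries. That is 42 of the 137 loci listed in this range, and 42 of 23336 loci that pass the same count rule among 57839 in the whole series. Within it lies a run of 9 loci, LOC_Os09g19280 to LOC_Os09g19510, which were chosen because their transcripts were lower in osatg5-1. The block was drawn around that run, so fold changes between the genotypes are given here as a description and not as a test of the block. The 11 loci before the run are called the left flank and the 22 loci after it the right flank.

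Mature leaves were taken at tillering, when the rice plant forms side shoots, from plants in a paddy under natural long days. Poly(A) RNA was sequenced from 3 libraries of osatg5-1, a mutant line of the autophagy gene OsATG5, and from 3 libraries of the wild type (WT). The labels give 1 mutant line, and they describe neither the nature of its allele, nor the variety, nor whether replicates were separate plants. Spreads and p-values therefore measure only the differences between these libraries, which may be technical.

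ATG5 is joined to ATG12 in a conjugate that helps attach ATG8 to the growing autophagosome, the membrane sac that carries cell material to the vacuole. The series asked how autophagy bears on flowering time. LOC_Os numbers rise along each rice chromosome, so loci with close numbers lie near each other on the DNA. Plant genes are mostly transcribed singly, each from its own promoter, and neighbours may be unrelated in function or be copies of one ancestral gene. Neither the files nor the reference table used here pairs any LOC_Os09g ID with a gene name, so the loci are described by place, level and length, with no function given. OsATG5 itself and marker genes of leaf cells could not be matched to IDs either and are not analysed here.

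The libraries held 31296258, 36280885 and 39351357 counts in osatg5-1 and 31628507, 31677943 and 30927816 counts in WT. Libraries of 1 genotype correlated at 0.990 to 0.993 across loci (log2 of CPM + 1) and libraries of different genotypes at 0.974 to 0.981. These correlations run across loci, which do not replicate one another. CPM below are counts scaled to the library total after TMM normalization. FPKM, which is also scaled to the length of the gene model, is the authors' deposited value and is used where loci are ranked by level. Sums over loci, and shares of such sums, are in CPM, so longer gene models weigh more in them.

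The 9 loci of the run were lower in every osatg5-1 library than in any WT library, as were 17.8% of all tested loci. Their summed level was 122.1, 104.7 and 116.8 CPM in the osatg5-1 libraries, against 301.5, 292.3 and 225.2 CPM in the WT libraries. The means were 114.5 ± 8.94 CPM in osatg5-1 and 273 ± 41.7 CPM in WT (SD, n = 3 each), so the mutant held 41.95% of the WT sum. The log2 fold changes ran from -1.46 to -0.66 with a median of -1.27, while the median over all 23074 tested loci was 0.0016. Whole leaves were sampled, so fewer cells of a type and less RNA per cell cannot be told apart. At 8 of the 9 loci the log2 fold change was -1 or lower. All 9 were called lower by edgeR's quasi-likelihood test at an adjusted p under 0.05, as were 8.21% of all tested loci. The run was selected on this contrast, so nothing is read from that count or from the separation of the libraries. Each locus rested on 118 to 2289 counts per library.

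**Figure D1:**
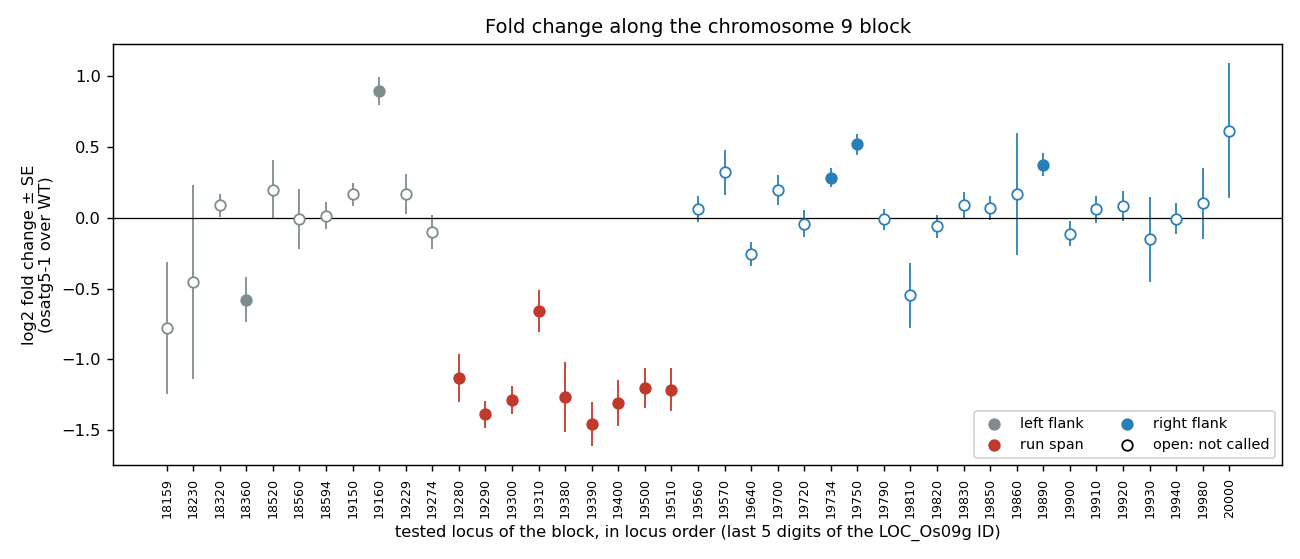
Log2 fold change of osatg5-1 over WT with its standard error (y axis) for the 41 tested loci of the block in locus order (x axis). Filled points were called at an adjusted p under 0.05. The 9 loci of the run lie between -1.46 and -0.66, and the nearest loci on either side lie at -0.10 and 0.06.

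The step at both ends of the run fell between adjacent expressed loci. LOC_Os09g19274, the last locus of the left flank, had 20.6, 16.9 and 16.8 CPM in osatg5-1 and 22.4, 18.2 and 17.5 CPM in WT. Its genotypes overlapped, and its log2 fold change was -0.10 ± 0.12 (SE). LOC_Os09g19280, the first locus of the run, had 3.93, 3.23 and 3.44 CPM in osatg5-1 and 9.02, 7.78 and 6.38 CPM in WT, a log2 fold change of -1.13 ± 0.17. At the far end, LOC_Os09g19510 had 30.5, 23.2 and 25.9 CPM in osatg5-1 and 63.5, 73.3 and 47.8 CPM in WT, or -1.21 ± 0.15 on the log2 scale. The next expressed locus, LOC_Os09g19560, had 17.3, 16.5 and 19.0 CPM in osatg5-1 and 16.6, 17.5 and 16.6 CPM in WT. It again overlapped between the genotypes, with a log2 fold change of 0.06 ± 0.09. No listed locus separates LOC_Os09g19274 from LOC_Os09g19280. Between LOC_Os09g19510 and LOC_Os09g19560, 4 loci are listed, all at 0 counts in the 6 libraries.

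Loci below the count rule divided the run into 3 groups. The range of the run lists 23 loci, of which 14 fell short of the count rule, and 12 of these had no count in any library. LOC_Os09g19280, LOC_Os09g19290, LOC_Os09g19300 and LOC_Os09g19310 form the first group. They are followed by 6 loci below the rule, 4 of them at 0 counts. LOC_Os09g19380, LOC_Os09g19390 and LOC_Os09g19400 form the second group, followed by 8 loci at 0 counts. LOC_Os09g19500 and LOC_Os09g19510 form the third. The summed level of the first group was 48.8 ± 1.82 CPM in osatg5-1 and 116.5 ± 14.6 CPM in WT. It was 19.3 ± 1.89 CPM in osatg5-1 and 49.3 ± 12.1 CPM in WT for the second group. For the third it was 46.4 ± 6.73 CPM in osatg5-1 and 107.2 ± 20.2 CPM in WT (SD, n = 3 each). The median log2 fold changes of the 3 groups, -1.21, -1.31 and -1.21, were close to one another.

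In the first group, LOC_Os09g19290 had 24.3, 24.4 and 23.7 CPM in osatg5-1 and 71.1, 63.4 and 55.0 CPM in WT. The mutant libraries agreed closely at this locus and lay well below all WT libraries, with a log2 fold change of -1.39 ± 0.09 (SE). Its gene model is the longest of the block, at 6600 bases as implied by its counts and FPKM. LOC_Os09g19300 had 15.2, 13.4 and 14.3 CPM in osatg5-1 and 37.7, 35.8 and 31.0 CPM in WT, or -1.29 ± 0.10 on the log2 scale.

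LOC_Os09g19310 departed least between the genotypes. It had 7.39, 6.37 and 6.91 CPM in osatg5-1 and 12.2, 11.7 and 8.69 CPM in WT, a log2 fold change of -0.66 ± 0.15 (SE). The genotypes did not overlap, but its highest mutant library reached 0.850 of its lowest WT library, nearer than at any other locus of the run. It was the only locus of the run that lost its call when 1 library was left out. Its log2 fold change was then -0.60 without osatg5-1 replicate 2 and also -0.60 without WT replicate 2. In both cases the loss of this 1 call split the run, and the longest stretch of called neighbours left in it was 5 loci.

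The second group contained the steepest difference. LOC_Os09g19390 had 5.91, 6.65 and 7.29 CPM in osatg5-1 and 21.7, 18.3 and 14.5 CPM in WT, or -1.46 ± 0.15 on the log2 scale (SE). LOC_Os09g19400 had 7.29, 7.60 and 7.89 CPM in osatg5-1 and 24.3, 17.0 and 15.2 CPM in WT, or -1.31 ± 0.17. The mutant libraries differed little at LOC_Os09g19400, and at both loci the WT libraries were more spread out than the mutant ones. LOC_Os09g19380 had 5.28, 3.72 and 6.28 CPM in osatg5-1 and 16.1, 12.2 and 8.46 CPM in WT. It varied most within both genotypes, and its log2 fold change of -1.27 had the largest standard error of the run, 0.25.

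The third group held the most abundant transcripts of the run per length. LOC_Os09g19500 stood at 17.9, 13.0 and 16.9 FPKM in osatg5-1 and at 35.8, 41.3 and 29.4 FPKM in WT. In CPM it had 22.3, 16.2 and 21.1 in osatg5-1 and 46.0, 52.9 and 38.2 in WT, a log2 fold change of -1.20 ± 0.14 (SE). LOC_Os09g19510 stood at 20.0, 15.2 and 16.9 FPKM in osatg5-1 and at 40.3, 46.6 and 30.0 FPKM in WT. Averaged over all libraries, these loci ranked 6 and 5 by FPKM among the 42 loci of the block. The least abundant locus of the run, LOC_Os09g19280, stood at 2.20 ± 0.23 FPKM in osatg5-1 and 4.65 ± 0.82 FPKM in WT (SD, n = 3 each) and ranked 32. The levels of the run thus differed widely, from 3.43 to 28.2 FPKM averaged over the 6 libraries, while the log2 fold changes of its loci other than LOC_Os09g19310 lay between -1.46 and -1.13.

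**Figure D2:**
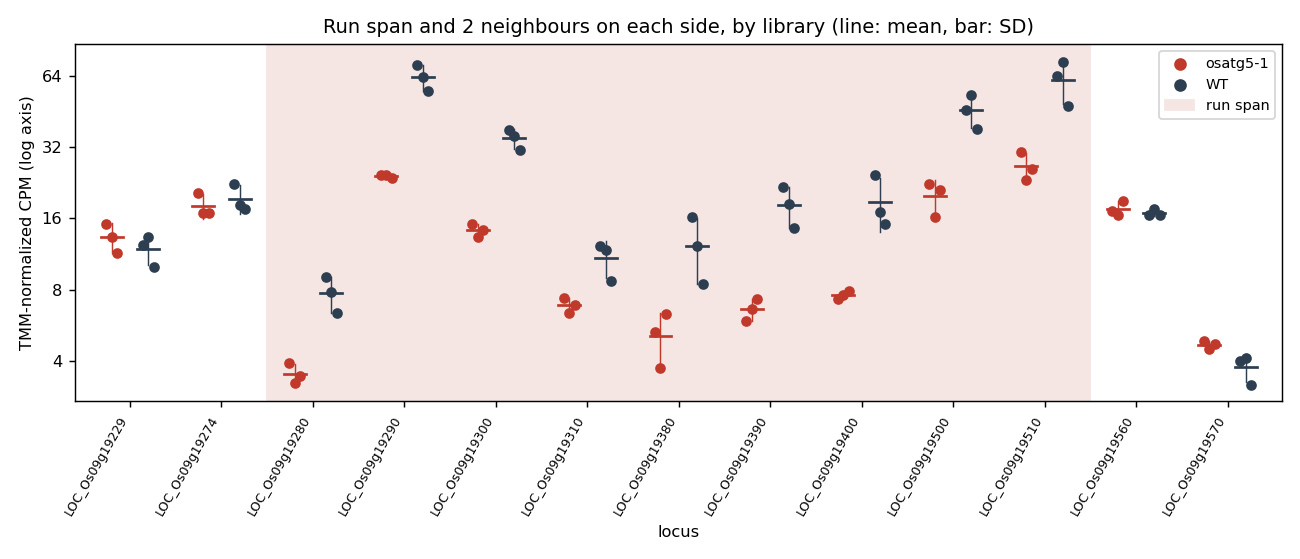
TMM-normalized CPM on a log axis (y) for the 9 loci of the run and the 2 nearest expressed loci on each side (x), with 1 point per library, horizontal lines for means and vertical bars for SDs. In the shaded run every osatg5-1 point lies below every WT point of the same locus, whereas the genotypes overlap at LOC_Os09g19274 and LOC_Os09g19560.

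The proportions among the 9 loci were similar in both genotypes. Each locus was expressed as a percentage of the run's summed CPM in its library. At 8 of the 9 loci these shares overlapped between the genotypes. LOC_Os09g19290, for example, took 21.1 ± 1.85% in osatg5-1 and 23.2 ± 1.39% in WT, and LOC_Os09g19510 took 23.1 ± 1.62% in osatg5-1 and 22.4 ± 2.27% in WT (SD, n = 3 each). The exception was LOC_Os09g19310. It took 6.05%, 6.09% and 5.92% in osatg5-1, against 4.04%, 4.01% and 3.86% in WT, so its share was higher in the mutant although its level was lower. All 9 loci were chosen as lower, and with 3 libraries per genotype an overlap does not show that shares were equal.

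**Figure D3:**
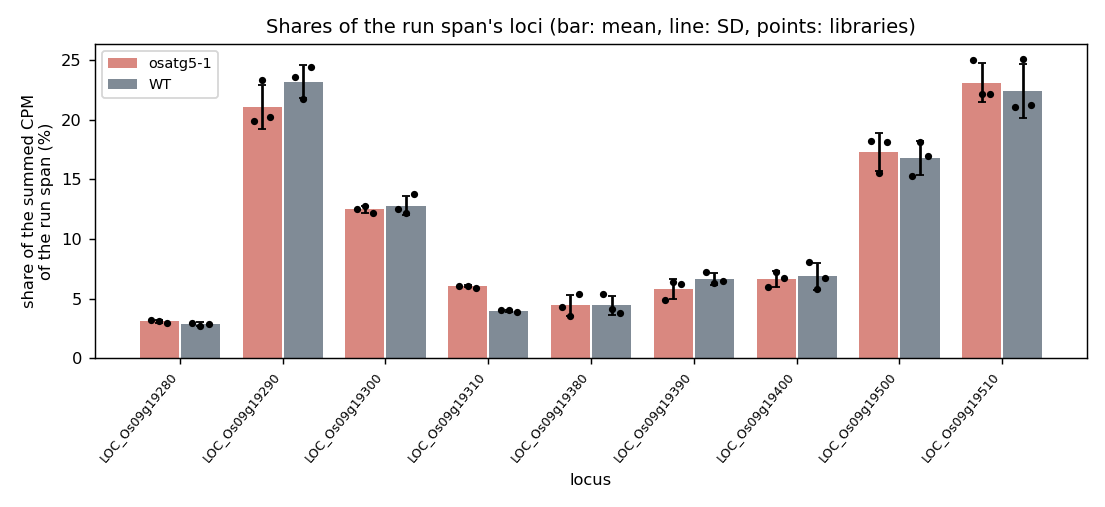
Share of each locus in the summed CPM of the run, in percent (y axis), for osatg5-1 (red) and WT (grey), with bars for means, lines for SDs and 1 point per library. The shares overlap between the genotypes at 8 loci and are separate at LOC_Os09g19310.

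Among the WT libraries alone, the loci of the run shared their lowest library but not their highest. WT replicate 3 was the lowest WT library at 9 of the 9 loci, and WT replicate 1 the highest at 7 and WT replicate 2 at 2. WT replicate 3 reached 0.695 to 0.892 of the next lowest WT library, depending on the locus. It was lowest at all 9 loci with RLE scaling, with library-size scaling and in FPKM as well. WT replicate 3 was the lowest WT library also at 6 of 11 tested loci of the left flank, whose summed level was 638.4, 656 and 554.2 CPM in the WT libraries. On the right flank it was lowest at 5 of 21 tested loci, and on the rest of chromosome 9 at 33.8% of 1157. The order of the mutant libraries was less uniform, with osatg5-1 replicate 2 lowest at 6 of the 9 loci. The library order was noticed in the data and was not tested.

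In osatg5-1 the spread between libraries in the run lay between the spreads of its flanks, and in WT it was wider than on either flank. The run's summed CPM had a coefficient of variation of 7.80% in osatg5-1 and 15.3% in WT. For the summed right flank it was 3.04% in osatg5-1 and 3.30% in WT, and for the left flank 9.41% in osatg5-1 and 8.83% in WT. The left sum is mostly LOC_Os09g18594, at 515.4, 406.9 and 486.9 CPM in osatg5-1, so its spread is largely that of this locus. Per locus, the median coefficient of variation was 10.2% in osatg5-1 and 17.5% in WT for the run. It was 11.9% in osatg5-1 and 13.8% in WT for the left flank, and 7.22% in osatg5-1 and 8.06% in WT for the right flank. It was 9.54% in osatg5-1 and 10.9% in WT for the other chromosome 9 loci. Without WT replicate 3 the median log2 fold change of the run was -1.37. That library was the lowest WT library at every locus of the run. Leaving it out was thus bound to widen the difference, and nothing is read from that value. The median ranged from -1.37 to -1.12 when each library was left out in turn.

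**Figure D4:**
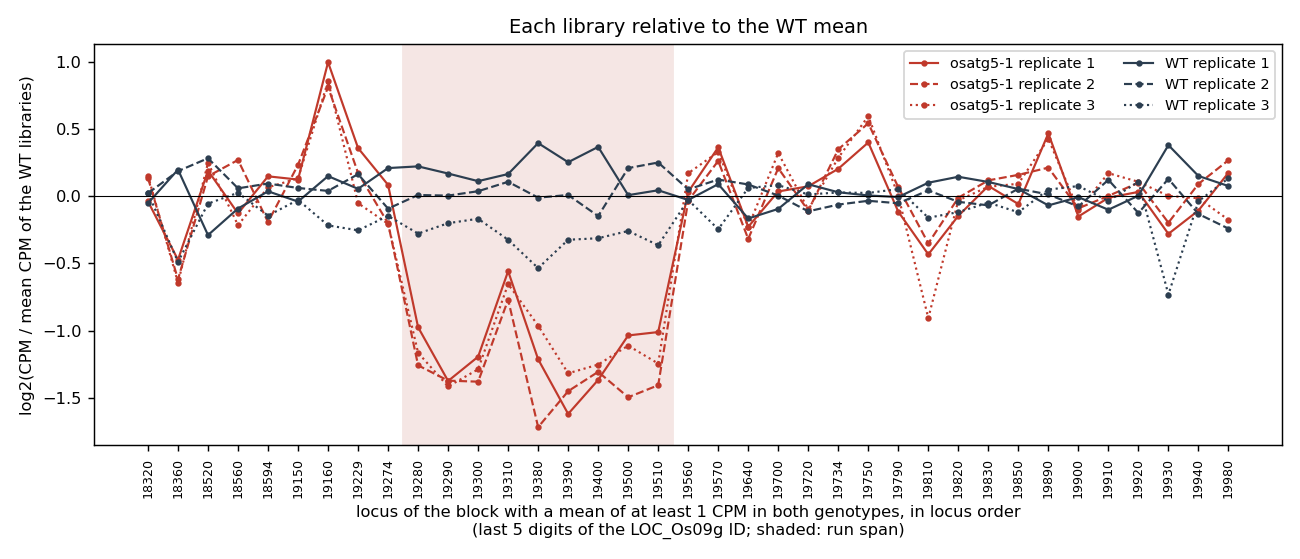
Log2 of each library's CPM over the mean CPM of the WT libraries (y axis) for block loci with a mean of at least 1 CPM in both genotypes, in locus order (x axis), with osatg5-1 in red and WT in dark blue. In the shaded run the red lines drop together, and WT replicate 3 (dotted dark blue) lies below the other WT libraries at all 9 loci.

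Of 32 flank loci tested, 1 was called lower and 4 were called higher, and 27 were not called. The called share was 15.6%, where all tested loci gave 16.4% and other chromosome 9 loci 16.7%. By direction it was 3.12% lower and 12.5% higher, where all tested loci gave 8.21% lower and 8.23% higher. Their median log2 fold change was 0.065. With library-size scaling it was 0.10, a setting in which the median over all tested loci was 0.038. The summed left flank was 642 ± 60.4 CPM in osatg5-1 and 616 ± 54.4 CPM in WT, and the summed right flank 696 ± 21.2 CPM in osatg5-1 and 666 ± 22.0 CPM in WT (SD, n = 3 each). The libraries of both genotypes overlapped in both sums, which stood at 104.1% of WT on the left and 104.6% on the right. Most of the left sum came from LOC_Os09g18594, with a mean of 469.7 CPM in osatg5-1 and 464.7 CPM in WT. The left sum therefore says little about the other loci of that flank.

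On the left flank, a higher locus stood close to the run. LOC_Os09g19160, the third expressed locus before it, rose to 63.6, 56.0 and 57.7 CPM in osatg5-1, against 35.3, 32.7 and 27.4 CPM in WT. The genotypes were well apart, and its log2 fold change of 0.89 ± 0.10 (SE) was the highest of the block. The neighbours on both sides were not called. LOC_Os09g19150 averaged 23.3 ± 1.00 CPM in osatg5-1 and 20.7 ± 0.80 CPM in WT, and LOC_Os09g19229 averaged 13.3 ± 1.89 CPM in osatg5-1 and 11.9 ± 1.72 CPM in WT (SD, n = 3 each). Every mutant library of LOC_Os09g19150 lay above every WT library, and the genotypes overlapped at LOC_Os09g19229.

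The lower locus of the left flank rested on its WT libraries. LOC_Os09g18360 had 24.4, 22.1 and 21.7 CPM in osatg5-1 and 38.9, 38.6 and 24.2 CPM in WT. WT replicate 3 lay among the mutant libraries, so the genotypes overlapped, and the log2 fold change was -0.58 ± 0.16 (SE). The call was lost without osatg5-1 replicate 1 (-0.63), replicate 2 (-0.55) or replicate 3 (-0.54), and without WT replicate 1 (-0.47) or replicate 2 (-0.47). It held only without WT replicate 3, at -0.77. Between LOC_Os09g18360 and the run lie 7 expressed loci, none of them called lower.

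The most abundant transcripts of the block lay on its flanks and differed little. LOC_Os09g18594, on the left flank, stood at 154.4, 121.9 and 145.5 FPKM in osatg5-1 and at 138.1, 144.2 and 120.7 FPKM in WT. LOC_Os09g19820, on the right flank, stood at 89.1, 97.9 and 96.2 FPKM in osatg5-1 and at 105.6, 92.9 and 87.0 FPKM in WT. The genotypes overlapped at both, with log2 fold changes of 0.02 ± 0.10 and -0.06 ± 0.08 (SE). LOC_Os09g18560, whose gene model is the shortest of the block at 273 bases, was also level, at 2.32 ± 0.43 CPM in osatg5-1 and 2.33 ± 0.13 CPM in WT (SD, n = 3 each).

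Of 21 tested loci on the right flank, 3 were called higher and 0 lower. That was 14.3% and 0%, where all tested loci gave 8.23% higher and 8.21% lower. LOC_Os09g19750 rose to 36.8, 40.7 and 42.2 CPM in osatg5-1, against 28.0, 27.3 and 28.4 CPM in WT, a log2 fold change of 0.52 ± 0.08 (SE). LOC_Os09g19890 rose to 85.2, 71.4 and 82.8 CPM in osatg5-1, against 58.7, 62.1 and 63.7 CPM in WT, or 0.38 ± 0.08. LOC_Os09g19734, next to LOC_Os09g19750, rose to 70.5, 78.0 and 74.6 CPM in osatg5-1, against 62.5, 58.6 and 62.4 CPM in WT, or 0.28 ± 0.07. The genotypes were apart at all 3, where 17.6% of all tested loci had every mutant library above every WT library. These 3 were picked because they were called higher, so nothing is read from their separation. The call of LOC_Os09g19734 was lost without osatg5-1 replicate 2 (0.25), osatg5-1 replicate 3 (0.28) or WT replicate 2 (0.25), and also on log2(FPKM + 1), where its log2 difference was 0.19.

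Nearest to the run on this side, 5 loci were not called. LOC_Os09g19570 averaged 4.69 ± 0.17 CPM in osatg5-1 and 3.76 ± 0.51 CPM in WT, and LOC_Os09g19700 averaged 14.2 ± 1.41 CPM in osatg5-1 and 12.4 ± 0.76 CPM in WT (SD, n = 3 each). LOC_Os09g19720 averaged 17.5 ± 1.27 CPM in osatg5-1 and 18.0 ± 1.26 CPM in WT. LOC_Os09g19640, the third locus by FPKM in the block, had 40.0, 37.6 and 40.0 CPM in osatg5-1 and 41.7, 49.8 and 48.9 CPM in WT. Its libraries did not overlap, and its log2 fold change of -0.26 ± 0.08 (SE) did not pass the test, though it did without WT replicate 1 (-0.33).

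Across the block the libraries of osatg5-1 lay below all WT libraries at 12 of 41 tested loci and above them at 6, where the shares over all tested loci were 17.8% and 17.6%, or 35.4% in either direction. Called loci made up 16.4% of all tested loci. The 12 include the 9 loci of the run, which were chosen as lower, so nothing is read from the 12. On the flanks alone, 3 of 32 tested loci lay below all WT libraries and 6 above them. The 3 below were not called. Of the 27 flank loci that were not called, 21 had a log2 fold change under 0.25 in size. The block has 5 loci under 1 CPM on average, and the 4 of them that were tested had standard errors of 0.43 to 0.69, against 0.07 to 0.30 at the others. LOC_Os09g18159, for instance, averaged 0.43 ± 0.26 CPM in osatg5-1 and 0.73 ± 0.17 CPM in WT (SD, n = 3 each), a difference that was not detectable at this depth. LOC_Os09g19870, with 5, 10 and 14 counts in osatg5-1 and 14, 8 and 6 counts in WT, fell below the test's filter.

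Expressed loci were unevenly placed along the block. On the left flank 11 of 67 listed loci passed the count rule, or 16.4%, and 45 had no count in any library. In the run's range 9 of 23 passed, or 39.1%, and on the right flank 22 of 47, or 46.8%. On the rest of chromosome 9 it was 35.6% of 3270 loci. The loci that passed had a median level of 10.5 FPKM in the run, 8.17 on the left flank, 8.44 on the right flank and 5.73 on the rest of the chromosome. The median length implied by counts and FPKM was 1264 bases in the run, against 2881 on the left flank, 2239 on the right flank and 1927 on other chromosome 9 loci.

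On the rest of chromosome 9, called loci went both ways. Of 1157 tested loci outside the block, 91 were called lower and 102 higher, or 7.87% and 8.82%, and their median log2 fold change was 0.00010. Counting the block, neighbouring tested loci called lower formed 14 stretches of at least 2 and 4 of at least 3, and the run was the only one of at least 4. In windows of 9 consecutive tested loci clear of the run, 1173 in all, the median number called lower was 0 and the highest was 6. The lowest median log2 fold change of such a window was -0.61, against -1.27 for the run. The run was chosen as lower on this contrast, and the window width was set to its length. Its place among windows and stretches is therefore a description and no test. The block takes places 324 to 364 among the 1198 tested loci of the chromosome.

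Single loci elsewhere on the chromosome differed more than any locus of the run. Log2 fold changes of other chromosome 9 loci reached from -4.87 to 4.78. At 99 of the 1157 the log2 fold change was -0.5 or lower, and at 153 it was 0.5 or higher.

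**Figure D5:**
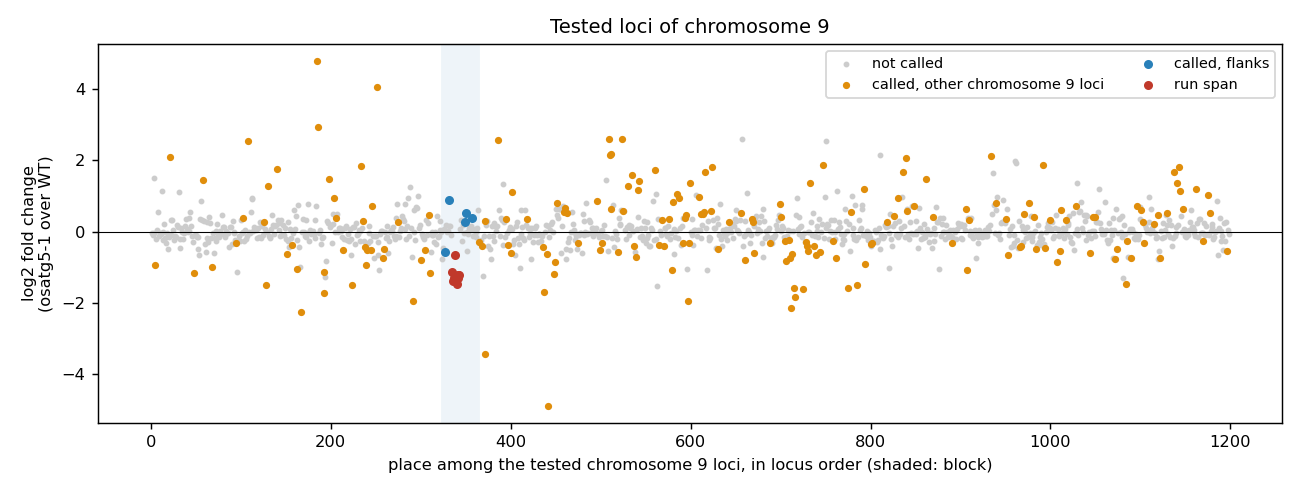
Log2 fold change of osatg5-1 over WT (y axis) for the 1198 tested loci of chromosome 9 by their place in locus order (x axis). Grey points were not called, and the shaded band is the block. The 9 loci of the run (red) lie together between -1.46 and -0.66, while called loci elsewhere (orange) go both ways and reach -4.87 and 4.78.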

How the data were processed

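Per the file headers, the authors deposited raw counts for each locus in 1 table, 1 column per library, and FPKM of the same loci in a file per library. HISAT2 and the build IRGSP-1.0 come from the submitters' processing notes. How reads were counted, with which strand setting and annotation, is not given in the sources used here. Overlapping, antisense and near-identical loci may share reads. Titles gave each library its genotype and number.

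Members and lists were chosen with earlier results of these data known. The 23074 loci that pass edgeR's filterByExpr were fitted together with edgeR 4.0.16 in R 4.3.3 (TMM scaling, quasi-likelihood test, genotype as the only term), and p-values were adjusted by Benjamini-Hochberg over all of them. Calls are made at an adjusted p under 0.05. Standard errors are the size of the log2 fold change over the square root of F. The procedure was tested on simulated data. Alternatives were RLE and library-size scaling, other filters, DESeq2 1.42.0, limma 3.58.1 (voom, and log2(FPKM + 1)), a replicate block, an adjusted p under 0.01 and leaving out each library.

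Named loci are the run, the 6 nearest members on each side, other called members, the 3 highest by FPKM and other chromosome 9 stretches of 4 or more called neighbours; LOC_Os09g18159 and LOC_Os09g19870 were added after their values were seen. Length is the one implied by counts and FPKM. Places come from the LOC_Os09g numbers, and no coordinates were used. Libraries of 1 genotype differed beyond counting error (chi-square over its degrees of freedom 10.3 or more), so each is 1 sample. The depth of 30927816 to 39351357 counts limits precision at loci with few counts.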

Additional observations from a re-analysis of the deposited data

How the results depend on the processing

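The 9 loci of the run kept their direction in all 135 combinations of locus and alternative and their call in 132, the exceptions being LOC_Os09g19310 at an adjusted p under 0.01 and without osatg5-1 replicate 2 or WT replicate 2. At the named flank loci 226 of 240 combinations kept their call or lack of one, 13 lost a call and 1 gained one, with no call reversed. At an adjusted p under 0.01, 1859 loci were called in all, 56 and 42 other chromosome 9 loci were lower and higher, 0 flank loci were lower, 2 flank loci and so 2 loci of the block were higher, and the longest run of lower neighbours was 5; a stricter threshold can only lose calls. Without a filter that run was also 5, because near-empty loci between LOC_Os09g19310 and LOC_Os09g19380 then enter the order. On log2(FPKM + 1) 0 flank loci were lower and 3 were higher, as LOC_Os09g18360 and LOC_Os09g19734 lost their calls. The median log2 fold change of the flanks was 0.10 with library-size scaling and 0.0999 on log2(FPKM + 1). That of other chromosome 9 loci was 0.037 and 0.038 in these settings and 0.0195 without a filter. The median over all tested loci was 0.038, 0.040 and 0.010 in the same order of settings, against 0.0016 in the main fit. The cause was not tested.

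With 1 library left out, the called loci ranged from 2567 to 3490, lower flank loci from 0 to 1, higher other chromosome 9 loci from 67 to 110, and the longest run from 5 to 9. With the replicate block 3765 loci were called, with 10 lower and 4 higher in the chromosome 9 block. The labels give no pairing, and deviations from the genotype means of libraries with the same number correlated at 0.0669, -0.0156 and 0.152, so the numbers were not taken to pair them.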

Other observations

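Higher loci also lay side by side on chromosome 9, at 4 neighbouring tested loci well beyond the block. LOC_Os09g25060 stood at 32.9, 39.2 and 61.6 CPM in osatg5-1 and at 2.29, 9.25 and 10.5 CPM in WT, a log2 fold change of 2.61 ± 0.42 (SE). LOC_Os09g25070 averaged 10.6 CPM in osatg5-1 and 2.38 CPM in WT, LOC_Os09g25090 averaged 39.4 CPM in osatg5-1 and 25.6 CPM in WT, and LOC_Os09g25100 averaged 1.14 CPM in osatg5-1 and 0.249 CPM in WT. The genotypes did not overlap at any of the 4. Of all tested loci, 17.6% likewise had every mutant library above every WT library. These 4 were picked because they were called higher, so nothing is read from their separation. Their fold changes differed more among themselves than those of the run, with log2 values from 0.62 to 2.61.

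When the tested loci of chromosome 9 were counted in bins of 100 by place, the bin that holds the run had 17 lower loci, 8 of them outside the run. The bin from place 701 to 800 had 21 lower and 5 higher loci, more lower ones than the bin with the run, but in shorter stretches of up to 3. The other 10 bins had 2 to 10 lower loci. These counts are a description and were not tested.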
